A study of Mus musculus with 661 samples.

Results

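Angiopoietins and their Tie receptors, with 3 angiopoietin-like genes, were followed across sorted stromal cells of young and old mouse bone marrow. The 7 genes were found by symbol among 45808 genes of the count table and are the ligands *Angpt1* and *Angpt2*, the receptors *Tek* (Tie2) and *Tie1*, and *Angptl1*, *Angptl2* and *Angptl4*. Cells came from C57BL/6 wild-type mice of either sex, young at about 2 months and old at about 24 months of age. Each single cell was deposited as its own sample, 354 of them mesenchymal and 307 endothelial. The sorted populations were MSC-L (LepR-expressing mesenchymal stromal cells, central marrow), MSC-S (Sca-1-expressing, endosteum), mOPr and OPr (multipotent and more committed osteoprogenitors, endosteum), AEC (arteriolar endothelial cells, endosteum) and SEC (sinusoidal endothelial cells, central marrow). Young mice gave 53 MSC-L, 59 MSC-S, 26 mOPr, 44 OPr, 84 AEC and 70 SEC, and old mice 58, 59, 26, 29, 82 and 71. All were sorted as negative for the blood cell markers Ter119 and CD45. The mesenchymal gates lacked CD31 and carried CD51. MSC-S had Sca-1, while the other mesenchymal gates lacked it and were divided by PDGFRα and LepR, both present on MSC-L, PDGFRα alone on mOPr and neither on OPr. Endothelial cells carried CD31, AEC with high Sca-1 and low CD105 and SEC the reverse.

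In background, angiopoietins are secreted ligands of the receptor tyrosine kinase Tie2 on endothelial cells. Angpt1 activates Tie2 and steadies vessels, Angpt2 can block or weakly activate it depending on context, and Tie1 is a related receptor that pairs with Tie2. In bone marrow, Angpt1 is known as a product of perivascular stroma and of blood stem cells. Angiopoietin-like proteins share the fold of the ligands but do not bind Tie2. Angptl4 inhibits lipoprotein lipase, Angptl2 is a secreted protein linked to inflammation and matrix, and Angptl1 has been described as anti-angiogenic.

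The median cell had 425611 counts in all genes, and the shallowest and deepest cells 58034 and 1503374. The labels name no mouse, so each population and age was 1 sample. Differences therefore have no replicate check, and no test was made. A level is the summed count of a group scaled to its total in nuclear genes (CPM, counts per 1e6 counts), with an exact Poisson 95% interval in parentheses. Shares of cells have exact Clopper-Pearson 95% intervals. The Poisson intervals cover counting error of reads only. Reads carried no molecular identifiers, so copies of 1 molecule count separately and these intervals are too narrow for molecules. The Clopper-Pearson intervals treat cells as independent. Neither kind covers differences between mice. Library numbers in the cell titles fell into 3 ranges. Mesenchymal cells lay in ranges 1 and 2, AEC in all 3, and SEC in range 3 alone, so that ratios were also taken within a range.

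Defining markers were checked against the sort first. The 8 endothelial markers summed to 9482 and 9373 CPM in young and old AEC and to 8987 and 9735 CPM in young and old SEC. In the 8 mesenchymal groups the same sum lay between 3.57 CPM in old MSC-S and 75.9 CPM in old mOPr. The 6 sinusoidal markers reached 17945 CPM in young and 13479 CPM in old SEC, led by *Stab2*, with *Lyve1* at 0 in old SEC. Young and old AEC had 1979 and 1189 CPM of them, and young and old MSC-L 2277 and 2367 CPM, led by *Vcam1*. The 6 arteriolar markers, led by *Ly6a* (Sca-1), were at 2756 and 3117 CPM in young and old AEC. In SEC they stood at 314 CPM in young and 1079.8 CPM in old cells, with *Ly6a* at 208 and 528 CPM. The 6 MSC-L markers, led by *Cxcl12*, were at 57359.5 CPM in young MSC-L and 548 CPM in young MSC-S. The 6 MSC-S markers, led by *Ly6a*, were at 2611 CPM in young and 3078 CPM in old MSC-S. They did not set MSC-S apart from AEC, at 2394 CPM in young and 2555 CPM in old AEC. Old mOPr had 1397 CPM of them, led by *Pdgfra*. The 6 osteolineage markers stood at 7878 and 7713 CPM in young and old mOPr and at 4135 and 1682 CPM in young and old OPr. This list did not set the osteoprogenitors apart, since young MSC-L were at 8833 CPM, led by *Ibsp*.

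Some groups also held cells with markers of another type. In the cluster assignments of the labels (iterative clustering and guide-gene selection, ICGS), 14 of 26 old mOPr and 10 of 29 old OPr lay in the MSC-L-like clusters M1 and M2, against 2 of 26 young mOPr and 3 of 44 young OPr. The study itself reports other shares for the old groups, with the larger share in OPr. The 6 MSC-L markers summed to 21133 CPM in old mOPr and 998 CPM in young mOPr, and to 22695 CPM in old OPr and 5589 CPM in young OPr. Among old OPr, 8 cells carried at least 7 of 15 hematopoietic markers at 10 CPM or more, and the list summed to 11098 CPM there, led by *S100a9*. Such a cell was also found once among old SEC. At least 7 of 12 mesenchymal markers were carried by 12 young SEC, 5 old SEC and 3 AEC of each age. The mesenchymal list summed to 10109.9 CPM in young SEC and 6928 CPM in old SEC, led by *Cxcl12*, and no gene of it was at 0. The endothelial cluster E1 held 9 young and 4 old SEC and 1 young AEC. The study names the cells of that cluster doublets. The cluster E2, whose cells the study names pericytes, held 4 young and 3 old AEC and 1 old SEC. The 9 mural markers summed to 2178 CPM in young AEC and 1806 CPM in old AEC, and to 2509 CPM in old mOPr and 2627 CPM in old OPr, led by *Acta2*, against 541 and 806 CPM in the young groups. In SEC they were at 2407 CPM in young and 2523 CPM in old cells, led by *Abcc9*, with *Cspg4* at 0 in young SEC. In the SEC-like cluster E7, *Abcc9* was found in all 105 cells (2018 CPM) and *Kcnj8* in 94 of them (746 CPM). Each other marker of this list was at 6.90 CPM or below there, *Acta2* at 1.21 CPM and *Rgs5* at 0.382 CPM. The list therefore did not set mural cells apart in SEC. The 5 megakaryocyte markers reached 1030.3 CPM in old MSC-L, led by *Ppbp*, and 658 CPM in old SEC, led by *Itga2b*, against 12.5 and 16.8 CPM in the young groups. The part of such cells in the results was not tested, other than by leaving them out where values without them are given.

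*Angpt1* (ENSMUSG00000022309.9, chr15:42424723-42676977, minus strand, GENCODE M21 on GRCm38), the activating ligand of Tie2, was highest in MSC-L. It stood at 196 CPM (190.3 to 202) in young and 203 CPM (196 to 209) in old MSC-L, and 48 of 53 young and 46 of 58 old cells had at least 1 count. Single young MSC-L ranged from 0 to 765 CPM with a median of 141 CPM, and old MSC-L from 0 to 2055 CPM with a median of 90.5 CPM. The ages overlapped over most of their range. All other groups had a median of 0 CPM over cells.

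Old mOPr and old OPr came next, each at 43 CPM. Young SEC (22.8 CPM), young MSC-S (21.7 CPM), old SEC (19.2 CPM) and young OPr (18.3 CPM) followed, and the interval of each overlapped that of its neighbor in this order. Young AEC were at 10.7 CPM, old AEC at 5.79 CPM, young mOPr at 5.07 CPM and old MSC-S at 3.62 CPM. In the last 3 of these groups the intervals of neighbors again overlapped. This order is that of summed counts, and many of these levels leaned on 1 cell. Without the highest cell, young and old OPr had 9.55 and 34.8 CPM of *Angpt1*, young and old mOPr 2.11 and 24.6 CPM, and young and old MSC-S 14 and 2.16 CPM. Young and old SEC were then at 18.8 and 10.1 CPM, and young and old AEC at 4.78 and 1.63 CPM, where the cell left out had held 55.9% and 72.3% of the counts.

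*Angpt1* of young SEC lay in cells with mesenchymal markers, and that of old SEC mostly did not. In the cluster E1 it was at 164 CPM, and in the SEC-like cluster E7 at 1.21 CPM with 3 of 105 cells positive. Without the 12 young SEC that carried mesenchymal markers, the 58 remaining young SEC had no count of *Angpt1*. Old SEC kept 266 of 398 counts (13.9 CPM) without 5 such cells, and 1 cell held 71.4% of those 266.

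*Angpt2* (ENSMUSG00000031465.6, chr8:18690263-18741562, minus strand), the context-dependent ligand, was present in stroma as well as endothelium. Its highest level was 110.0 CPM (105 to 115) in old MSC-L, followed by old SEC at 59.3 CPM (56 to 62.7) and young SEC at 57.8 CPM (54.6 to 61.1), which did not differ beyond counting error. Old OPr were at 48.4 CPM, young MSC-L at 40.8 CPM, old mOPr at 33.3 CPM, young AEC at 27.5 CPM and young mOPr at 22.7 CPM. At the low end stood old MSC-S (15.8 CPM), old AEC (12.7 CPM), young OPr (4.94 CPM) and young MSC-S (2.72 CPM).

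Transcripts of *Angpt2* were uneven between cells. A count was found in 41.5% of young and 55.2% of old MSC-L and in 41.4% of young and 39.4% of old SEC. Single cells held 97.9% of the counts of young mOPr, 87.2% of those of young MSC-S and 75.4% of those of old MSC-S, so those 3 levels rest on 1 cell each. In old mOPr 1 cell held 68.8% of the counts (11.0 CPM without it), in old AEC 46.8% (6.79 CPM without it) and in young OPr 38.6% (3.16 CPM without it). Over single cells, young MSC-L ranged from 0 to 476 CPM and old MSC-L from 0 to 920.0 CPM, with medians of 0 and 4.67 CPM.

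Among cells sorted as endothelial, *Angpt2* differed between library-number ranges, with much of it in single cells. In range 3, where AEC and SEC can be compared, it was at 58.4 CPM in young AEC and 57.8 CPM in young SEC. Young AEC of ranges 1 and 2 had 17.7 and 21.9 CPM. Old AEC had 0.580, 2.41 and 61.1 CPM in ranges 1 to 3. In range 3, 1 cell held 61.4% of the young and 53.2% of the old AEC counts, which left 23.9 and 29.9 CPM without it. In ranges 1 and 2, 1 cell held 52% and 47% of the young counts (9.00 and 12.0 CPM without it), and in range 2 1 cell held 93.8% of the old counts (0.155 CPM without it). Of the range 3 AEC, 2 young cells of E2 (131 and 200.1 CPM of *Angpt2*) and 1 old cell of E2 (402 CPM) had no count of *Tie1*. Without E2, *Angpt2* of AEC in all ranges together was at 26.2 CPM in young and 7.65 CPM in old cells. There 1 cell held 26.9% of the young and 80.2% of the old counts (19.4 and 1.53 CPM without it).

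*Tek* (ENSMUSG00000006386.15, chr4:94739289-94874976, plus strand), which encodes Tie2, was an endothelial gene with 1 exception. It stood at 384 CPM (378 to 391) in young AEC, 403 CPM (395 to 411) in young SEC, 471 CPM (464 to 478) in old AEC and 496 CPM (487 to 506) in old SEC. At least 90.5% of the cells of each of these groups had a count. Median levels over single cells were 226 CPM in young AEC, 278 CPM in young SEC, 407 CPM in old AEC and 397 CPM in old SEC. The highest single cells reached 2219.5, 1661, 2723 and 2347 CPM in the same order, and some cells of each group were at 0.

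The exception was young MSC-S, at 43.1 CPM (40.9 to 45.3) in 13 of 59 cells, whereas old MSC-S were at 1.68 CPM (1.30 to 2.14) in 5 of 59 cells. Nearly all of this signal lay in the MSC-S-like cluster M7. There *Tek* was at 163 CPM over 15 cells, 10 of which had a count, and the highest cell held 23.7% of the counts. The other 109 MSC-S-like cells together had 0.398 CPM.

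Cells of M7 had few counts of other endothelial genes. *Tie1* was at 0.320 CPM, *Pecam1* at 0.427 CPM, *Cdh5* at 0.107 CPM and *Ptprb* at 0.320 CPM in M7, while the same genes stood at 759, 2248, 612 and 3101 CPM in AEC-like cells. *Esam* was at 9.81 CPM, found in 3 of the 15 cells. Of the mural markers, *Rgs5* was at 0.213 CPM and *Myh11* at 0 CPM there, and *Cspg4* at 68.9 CPM. The genes of Sca-1-expressing stroma were high, with *Ly6a* (Sca-1) at 2834 CPM and *Pdgfra* at 739 CPM, each found in all 15 cells. *Cd34* was at 2199.9 CPM, *Dpp4* at 573 CPM and *Clec3b* at 667 CPM. By sort, M7 held 9 young MSC-S, 8 of them with *Tek*, and 6 old MSC-S, 2 of them with *Tek*. Within M7 the level was 263 CPM in young and 12.0 CPM in old cells, and 1 old cell held 93.3% of the 45 old counts (0.925 CPM without it). *Tek* and *Tie1* were not guide genes of the clusters.

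Outside endothelium and MSC-S, *Tek* was close to absent. In young mOPr all 157 counts (10.8 CPM) came from 1 cell, old mOPr had 0 counts, which allows up to 0.240 CPM, and old MSC-L were at 2.36 CPM with 65.2% of the counts in 1 cell. The other mesenchymal groups were at 0.219 CPM or below.

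*Tie1* (ENSMUSG00000033191.14, chr4:118471191-118490061, minus strand), the partner receptor, was found in endothelium without such an exception. It was at 779.7 CPM (771 to 789) in young AEC, 729.6 CPM (721 to 739) in old AEC, 625 CPM (614 to 636) in old SEC and 384 CPM (376 to 393) in young SEC, and none of these intervals overlapped. Mesenchymal groups had at most 0.923 CPM, and 0 counts were found in young and old mOPr. Over single cells the median was 623 CPM in young AEC, 614 CPM in old AEC, 480.4 CPM in old SEC and 283 CPM in young SEC. All 4 groups started at 0 and reached 4171 CPM in young AEC, 3010.0 CPM in old AEC, 1749 CPM in young SEC and 1824 CPM in old SEC, so that single cells of AEC and SEC overlapped widely.

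**Figure D1:**
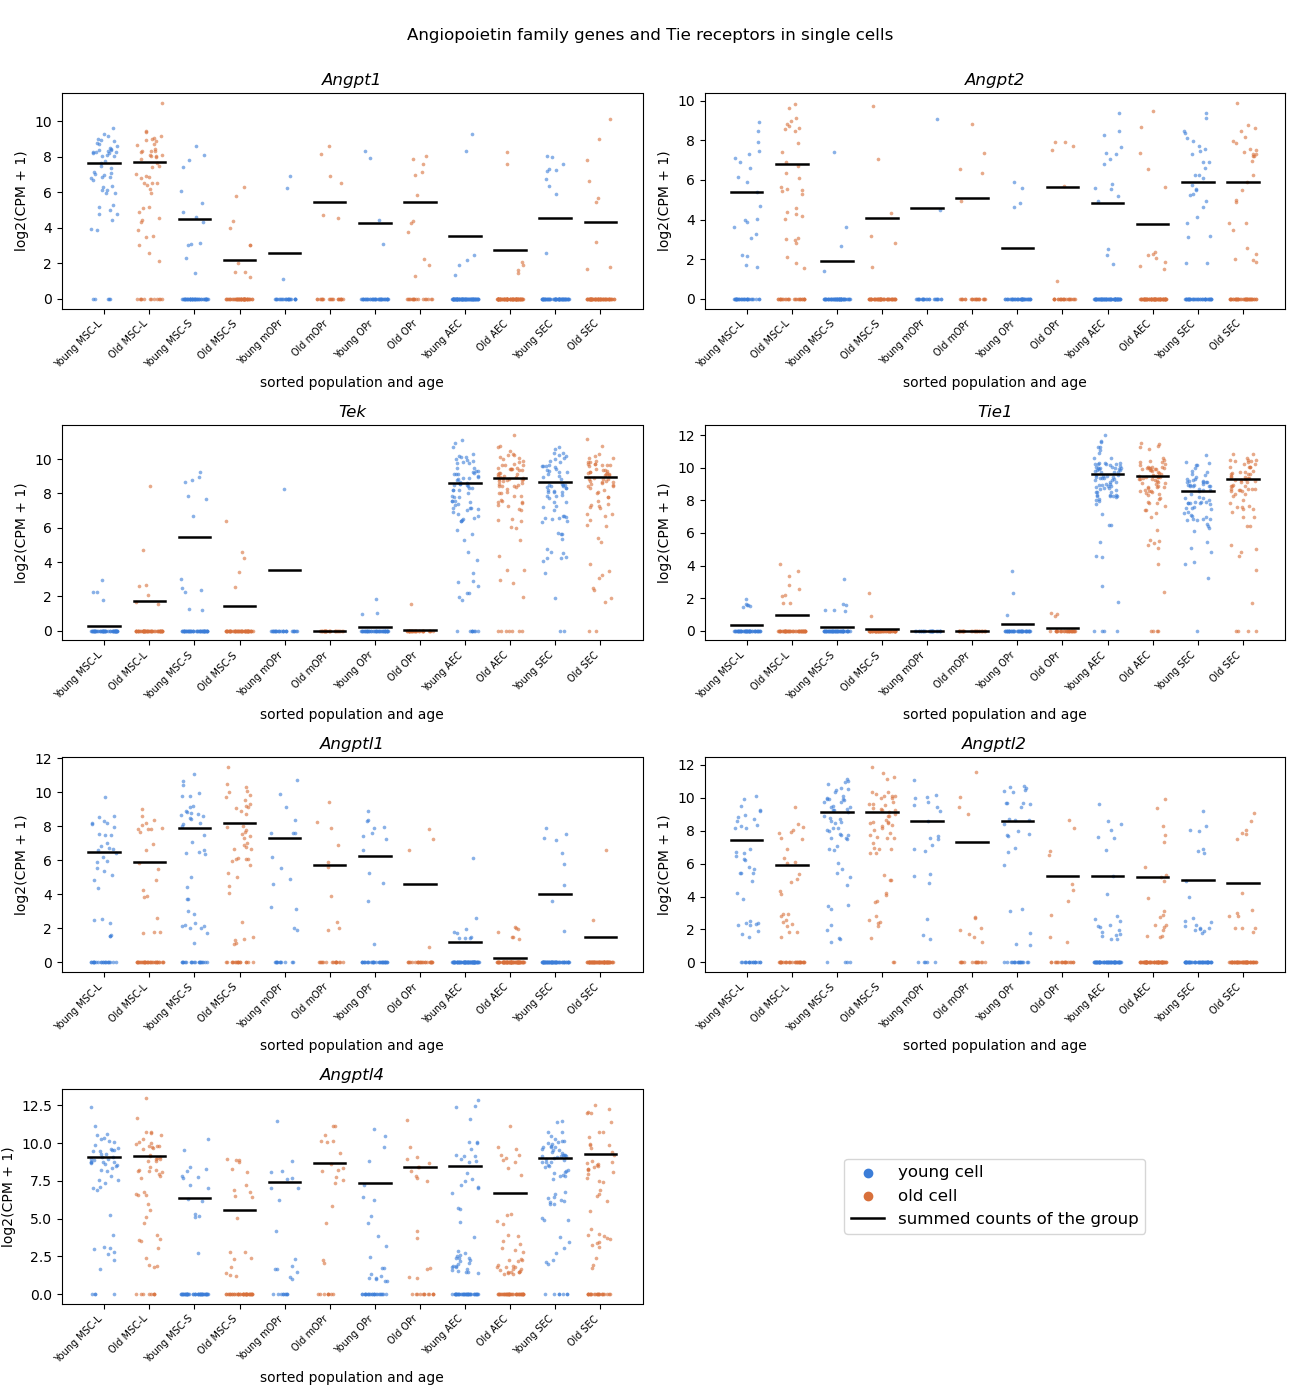
Each point is 1 cell on a log2(CPM + 1) axis, by sorted population and age for the 7 genes, with young cells in blue, old cells in orange and the level of the summed counts as a black line. *Tie1* is near 0 in all 8 mesenchymal groups, while *Tek* has a set of high cells in young MSC-S (43.1 CPM over the group).

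Most AEC and SEC had counts of both receptors. Each receptor was found in most of these cells in any case, so this overlap is a description. At least 1 count of each of *Tek* and *Tie1* was present in 74 of 84 young AEC (88.1%, 79.2 to 94.1%), 74 of 82 old AEC (90.2%, 81.7 to 95.7%), 67 of 70 young SEC (95.7%, 88.0 to 99.1%) and 65 of 71 old SEC (91.5%, 82.5 to 96.8%). With each cell thinned to 100000 nuclear counts, the counts of such cells were 71 of 83, 71 of 82, 66 of 70 and 61 of 70. In young MSC-S only 2 of the 13 cells with *Tek* also had *Tie1*.

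Ligand and receptor met in single endothelial cells for *Angpt2* but rarely for mesenchymal cells. All 29 young SEC with *Angpt2* also had *Tek*, as did 27 of 28 old SEC, all 16 young AEC and 9 of 12 old AEC with *Angpt2*. Since most of these cells had *Tek* in any case, the overlap is a description. In MSC-L, *Angpt2* and *Tek* shared 3 young and 4 old cells.

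Most MSC-L did not have counts of both ligands. *Angpt1* and *Angpt2* were found in the same cell in 21 of 53 young (39.6%, 26.5 to 54%) and 28 of 58 old MSC-L (48.3%, 35 to 61.8%). Since 48 young and 46 old MSC-L had *Angpt1* in any case, this overlap is a description. *Kitl*, which encodes stem cell factor, and *Lepr* were found in all 53 young MSC-L and *Lepr* in all 58 old MSC-L, with 1 old cell lacking *Kitl*, so every MSC-L with *Angpt1* had both of them and this overlap says nothing of *Angpt1*.

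*Angptl1* (ENSMUSG00000033544.6, chr1:156838562-156861078, plus strand) was highest in MSC-S, at 236 CPM (231 to 241) in young and 289 CPM (284 to 295) in old cells. Young mOPr followed at 160.1 CPM, young MSC-L at 87.5 CPM, young OPr at 75.5 CPM, old MSC-L at 59.5 CPM, old mOPr at 51.8 CPM and old OPr at 23.1 CPM. Young SEC were at 14.9 CPM, and old SEC (1.83 CPM), young AEC (1.29 CPM) and old AEC (0.201 CPM) were lowest. In the osteoprogenitors 1 cell held 42.4% of the young and 38.9% of the old mOPr counts (96.1 and 32.6 CPM without it) and 54% of the old OPr counts (11.2 CPM without it). Single old MSC-S ranged from 0 to 2891 CPM with a median of 65.0 CPM, and young MSC-S from 0 to 2157 CPM with a median of 7.21 CPM. Among clusters of at least 5 cells it was highest in M9 (829 CPM, 10 of 10 cells) and M6 (667 CPM, 5 of 5 cells, with 63.4% of the counts in 1 cell), and M3 had no count in 16 cells.

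*Angptl2* (ENSMUSG00000004105.8, chr2:33216069-33247717, plus strand) had a similar order across mesenchymal groups. It stood at 572 CPM (564 to 580.1) in young and 562 CPM (555 to 569) in old MSC-S, with counts in 55 and 57 of 59 cells. Young OPr (387 CPM) and young mOPr (379 CPM) came next and did not differ beyond counting error. Young MSC-L were at 173 CPM, old mOPr at 160.4 CPM, old MSC-L at 60.5 CPM and old OPr at 36.3 CPM, the last in the range of AEC (37.4 CPM young, 36.1 CPM old) and SEC (31.7 CPM young, 27.8 CPM old). Without the highest cell old mOPr were at 68.7 CPM, old OPr at 22.9 CPM and old AEC at 18.2 CPM. Medians over single cells were 292 CPM in young and 329.8 CPM in old MSC-S, and 0 CPM in the 4 endothelial groups. Among clusters of that size, M3 (716 CPM, 16 of 16 cells), M12 (699 CPM), M9 (664 CPM) and M7 (659 CPM) were highest. In the SEC-like cluster E7 it was at 2.32 CPM, and in the cluster E1 at 191 CPM.

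*Angptl4* (ENSMUSG00000002289.16, chr17:33773750-33781830, minus strand), the inhibitor of lipoprotein lipase, was shared by marrow stroma and marrow endothelium. The highest groups were old SEC at 618 CPM (608 to 629), old MSC-L at 563 CPM (552 to 573), young MSC-L at 551 CPM (542 to 561) and young SEC at 518 CPM (508 to 527). Old mOPr (409.5 CPM), young AEC (361 CPM) and old OPr (342 CPM) were intermediate. Young mOPr were at 175 CPM, young OPr at 162 CPM, old AEC at 103 CPM, young MSC-S at 83 CPM and old MSC-S at 47.6 CPM. Only the intervals of young and old MSC-L overlapped between neighbors in this order.

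Single cells differed widely in *Angptl4*. Young MSC-L ranged from 0 to 5269 CPM with a median of 406 CPM, and young SEC from 0 to 2783 CPM with a median of 353 CPM. Old SEC had a median of 19.1 CPM and a highest cell of 5845 CPM, so that their higher sum came from fewer cells, with 48 of 71 positive against 63 of 70 young SEC. In young AEC the median was 1.92 CPM and 1 cell at 7554 CPM held 28.5% of the counts. Without the highest cell young mOPr were at 61.1 CPM and young OPr at 89.7 CPM, so that their order turned. Old OPr were then at 194 CPM, young MSC-S at 54.8 CPM and old AEC at 65.7 CPM. By cluster, endothelial *Angptl4* was at 683 CPM in E7, 399 CPM in E4 and 10.5 CPM in E3.

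**Figure D2:**
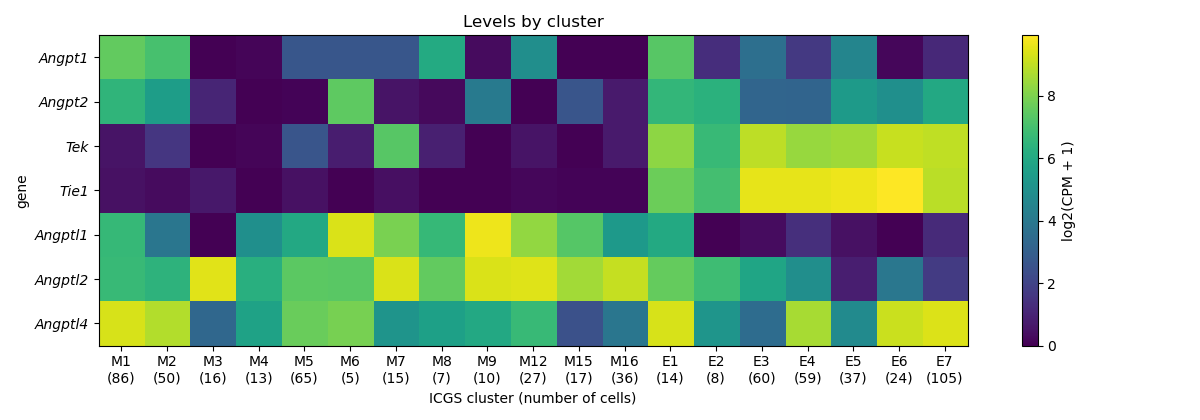
Color gives log2(CPM + 1) of the summed counts for each gene (vertical axis) in each ICGS cluster of at least 5 cells (horizontal axis, number of cells in parentheses). *Angpt1* is high in M1 and M2 (186 and 132 CPM) and in E1 (164 CPM), *Tie1* in the endothelial clusters, and *Tek* also in M7.

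Since the clusters were built on all genes, and *Angpt1*, *Angptl1* and *Angptl4* are among their guide genes, levels by cluster are a description. To compare levels between genes, CPM were divided by the length of the union of exons in kb. In young MSC-L the order was *Angptl4* (156 CPM per kb), *Angpt1* (37.6), *Angptl1* (30.8), *Angptl2* (27.5) and *Angpt2* (11.1), with *Tie1* and *Tek* under 0.1 CPM per kb. By the length of the longest transcript, *Angptl2* was at 48.6 and *Angpt1* at 46 CPM per kb, so that the order of *Angpt1*, *Angptl1* and *Angptl2* depended on the length used. In young MSC-S, *Angptl2* (91.0) and *Angptl1* (83) led, followed by *Angptl4* (23.4) and *Tek* (9.14 CPM per kb). Young AEC had the order *Tie1* (159), *Angptl4* (102) and *Tek* (81.5), and young SEC *Angptl4* (146), *Tek* (85.5) and *Tie1* (78.1 CPM per kb). By the longest transcript *Tie1* (90.8) came before *Tek* (86.6 CPM per kb) in young SEC.

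Place was compared among young cells. For log2 ratios a pseudocount of 1 CPM was added, and a gene was called at a 2-fold difference if it had at least 100 counts in at least 5 cells. Between young MSC-L and young MSC-S, 45.5% of 13645 genes were past 2-fold, and all 6 of the 7 members that passed the count filter were, 3 in each direction. *Angpt2* (log2 ratio 3.49, or 4.54 without the highest cell of each group), *Angpt1* (3.12) and *Angptl4* (2.72) were higher in MSC-L. *Tek* (-5.18), *Angptl2* (-1.72) and *Angptl1* (-1.42) were higher in MSC-S. In library-number ranges 1 and 2 the ratio of *Angptl1* was -2.12 and -0.27, and the other 5 kept a ratio past 2-fold in each range. *Tie1* did not pass, with 6 counts on each side.

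Between young SEC and young AEC of range 3, 42.2% of 11908 genes were past 2-fold, as were 4 of the 7 members. *Tie1* was lower in SEC, at 384 against 923 CPM (log2 ratio -1.26). *Tek* (0.45), *Angptl4* (0.75) and *Angpt2* (-0.02) stayed within 2-fold. The other 3 were higher in SEC, where AEC of this range had 1 count or none. *Angptl1* was at least 32.2-fold higher. For *Angpt1* and *Angptl2*, with 1 AEC count each, the log2 ratios without a pseudocount were 7.20 (4.72 to 12.51) and 7.68 (5.20 to 12.99). Without the endothelial cells with mesenchymal markers, SEC had no count of *Angpt1*, and only *Tie1* (-1.15) and *Angptl1* (1.71, with 97.5% of the SEC counts in 1 cell) were past 2-fold. Without the highest cell of each group, *Angpt2* (1.01) and *Angptl4* (1.45) were past it too, which made 6 members.

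Age was compared within each population. In MSC-L, 25.4% of 13143 genes were past 2-fold, as were 2 of the 5 members that passed. *Angpt2* was higher in old MSC-L (log2 ratio 1.41, or 2.69-fold without a pseudocount), with 1.62 in range 1 and 1.27 in range 2, and 1.57 when the highest cell in either age was left out (2.13 and 1.53 in the ranges). *Angptl2* was lower (-1.50), with -2.53 and -1.18 in the ranges, or -3.33 and -1.20 there without the highest cells. *Angpt1* (0.05) and *Angptl4* (0.03) were close to equal in the ages, and *Angptl1* was at -0.55, with -2.22 in range 1 and 0.14 in range 2.

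Split by cluster, *Angpt2* was at 47.6 CPM in the 39 young and 129.8 CPM in the 33 old MSC-L of M1. In M2 it was at 20.5 CPM in 12 young and 73.7 CPM in 23 old MSC-L. There 3 young and 8 old cells were positive and 1 cell held 45.5% of the young and 52.6% of the old counts, and without these cells the levels were 11.9 and 36.5 CPM. *Angpt1* was at 205 CPM in young and 194 CPM in old MSC-L of M1, found in 38 of 39 and 30 of 33 cells. In M2 the levels were 197 and 226 CPM, from 10 of 12 young and 15 of 23 old cells, and 1 old cell held 33.3% of the counts (156 CPM without it).

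In MSC-S, 19.7% of 13381 genes were past 2-fold, as were 3 of the 6 members that passed. *Tek* was lower in old cells (log2 ratio -4.04), with -3.24 in range 1 and -4.62 in range 2 (-4.17 and -4.27 without the highest cells of each range). *Angpt1* was lower too (-2.30, with -4.31 and -1.38, or -3.41 and -1.27 without the highest cells). *Angpt2* was at 2.17, with 5.19 and 0.29, a difference that rested on single cells. Of its counts, 87.2% in young and 75.4% in old MSC-S came from 1 cell, and without these cells the ratio was 1.87. In range 1, 1 cell held 99.8% of the old counts, and in range 2 another held 85.4%. Without the highest cells of each range the ratio was 0.15 in range 1 and 0.38 in range 2. *Angptl2* was at -0.03. *Angptl1* had a ratio of 0.29 in both ranges together, with -1.16 in range 1 and 1.84 in range 2. For *Angptl4* it was -0.79, with 0.71 and -1.93, so that each gene had opposite signs in the ranges. The ages also differed in clusters, with no young and 10 old MSC-S in M9 and 5 young and no old MSC-S in M15. The cells of M9, most of them in range 2, held 6940 counts of *Angptl1* (829 CPM). All old MSC-S together had 2245 counts of it in range 1 and 9089 in range 2. The part of the clusters in these ratios was not tested.

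In mOPr, 44.5% of 11237 genes were past 2-fold, as were 4 of the 5 members that passed. *Angpt1* was higher in old mOPr (log2 ratio 2.86, with 1.99 in range 1 and 3.43 in range 2), as was *Angptl4* (1.22, with 2.22 and 0.61). *Angptl1* (-1.61, with -1.78 and -0.21) and *Angptl2* (-1.23, with -0.29 and -2.94) were lower. *Angpt2* was at 0.53, with 3.82 and -0.19. Several of these values depended on 1 cell. Within the ranges and without the highest cells, the ratios were 1.51 and 4.36 for *Angpt1*, 2.43 and 3.63 for *Angptl4*, -2.22 and -1.17 for *Angptl1*, -1.68 and -6.72 for *Angptl2*, and 4.23 and 0.00 for *Angpt2*. In both ranges together, leaving out the highest cell of each age gave 3.00 for *Angpt2*, 2.55 for *Angptl4*, where 1 young cell held 66.6% of the counts, and -2.10 for *Angptl2*, where 1 old cell held 58.5%. A larger share of old mOPr lay in M1 and M2, as given above. *Angpt1* and *Angptl4* are guide genes of the mesenchymal clusters, so their values without M1 and M2 are in part set by the clustering. Without the cells of these clusters, an alternative chosen after the data were seen, *Angpt1* had no count in the 12 remaining old mOPr, which allows up to 0.507 CPM, and 3.24 CPM in 24 young mOPr, where 1 cell held 97.8% of 45 counts (0.0741 CPM without it). *Angpt2* had no count in these old cells either, and its 23.4 CPM in the young cells came from 1 cell. *Angptl4* was then at 174 CPM in young and 199 CPM in old cells, with 70.6% and 67.7% of the counts in 1 cell each (53.5 and 68.3 CPM without these). *Angptl1* was at 168 CPM in young and 56 CPM in old cells and *Angptl2* at 399 and 241 CPM. Here too single cells weighed. For *Angptl1*, 1 cell held 42.4% of young and 76.1% of old counts (101 and 14.2 CPM without it). For *Angptl2* these shares were 25.0% and 82.2% (313 and 45.7 CPM without it). All 12 old mOPr left lay in M5, as did 7 of the 24 young mOPr. Within M5, young and old cells had 232 and 241 CPM of *Angptl2* (154 and 45.7 CPM without the highest cells). *Angptl1* was at 136 and 56 CPM there (3.27 and 14.2 CPM without them) and *Angptl4* at 32.8 and 199 CPM (16.4 and 68.3 CPM). The part of this makeup was not tested beyond these values.

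In OPr, 45.2% of 13418 genes were past 2-fold, as were the 5 members that passed. *Angpt2* (log2 ratio 3.05, with 3.00 in range 1 and 3.62 in range 2) and *Angptl4* (1.07, with 1.31 and 0.50) were higher in old OPr. In range 2, however, 1 old cell held 99.6% of the *Angpt2* counts, and without the highest cells its ratio was 3.24 in range 1 and 0.12 in range 2, against 1.59 and 2.73 for *Angptl4*. *Angptl2* (-3.38, with -4.04 and -2.97) and *Angptl1* (-1.67, with -1.65 and -1.48) were lower, and *Angptl1* was at -2.30 without the highest cells. The ages also differed in clusters, with 15 young and 1 old OPr in M3 and 5 young and no old OPr in M15. Young cells of M3 held 7395 of the 11357 young *Angptl2* counts and none of *Angptl1*. Within M5, *Angptl2* was at 258 CPM in young and 0.881 CPM in old OPr, or 23.9 and 0.246 CPM without the highest cells. Of the 19 old OPr outside M1 and M2, 8 had hematopoietic markers and 15 lay in M5, so some old cells of M5 had them. The part of M3 and M15 in these ratios was not tested. All *Angptl1* counts of old OPr in range 2 came from 1 cell. Young and old single cells for *Angptl2* ranged from 0 to 1702 CPM and from 0 to 407 CPM, with medians of 33.5 and 0 CPM. *Angpt1* was higher in both ranges together (1.19, and 1.76 without the highest cells) but had a ratio of -0.30 in range 1 and 5.56 in range 2 (-1.05 and 5.19 without the highest cells). Since *Angpt1* and *Angptl4* are guide genes of the mesenchymal clusters, their values without M1 and M2 are a description. Without cells of M1 and M2, *Angptl4* and *Angpt2* were lower in old OPr. The old OPr left there still held the 8 cells with hematopoietic markers, and no such cell was found among young OPr. *Angptl4* was at 61.1 CPM in the 41 young and 10.5 CPM in the 19 old OPr left (log2 ratio -2.43), *Angpt2* at 2.55 and 0.0849 CPM (-1.71), the latter from 1 count, and *Angpt1* at 0.0380 and 0.340 CPM, from 1 and 4 counts. Of the 67 young counts of *Angpt2*, 83.6% came from 1 cell, with 0.438 CPM without it. Of the counts of *Angptl4*, 61.5% in young and 88.7% in old OPr came from 1 cell, with 24.2 and 1.24 CPM without it. *Angptl2* was at 429 CPM in young and 27.8 CPM in old cells, and at 387 and 2.00 CPM without the highest cells, which held 13.7% and 93.3% of the counts. Without the 8 old cells with hematopoietic markers *Angptl2* was at 48.1 CPM in old OPr.

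In AEC, 21.1% of 14042 genes were past 2-fold, as were 2 of the 6 members that passed. *Angptl4* was lower in old AEC, at 103 against 361 CPM (log2 ratio -1.80). This held in ranges 1 (-2.86), 2 (-1.86) and 3 (-1.93) and with the highest cell of either age left out (-1.98, and -1.92, -2.06 and -2.55 in the ranges). Levels differed between ranges, from 4.52 CPM in old and 39 CPM in young AEC of range 1 to 153 and 558 CPM in range 2. Without the highest cells these were 2.91 and 13.8 CPM in range 1, where 1 cell held 66.3% of the young counts, and 88.2 and 371 CPM in range 2. The ages also differed in clusters, with 8 young and 2 old AEC in E6, 26 and 27 in E4, 24 and 34 in E3 and 19 and 16 in E5. The 8 young AEC of E6 held 4033 of the 12581 young counts (1438 CPM, or 491 CPM without the highest cell). Within E4 *Angptl4* was at 596 CPM in young and 272 CPM in old AEC, or 307 and 173 CPM without the highest cells, so that the second pair was within 2-fold. It was at 22.3 and 2.38 CPM in E3, where 1 cell held 82.5% of the young counts (4.07 and 1.45 CPM without the highest cells), and at 25.1 and 28.1 CPM in E5, where 1 cell held 82.3% of the young and 96.9% of the old counts. The part of the clusters in the ratio of *Angptl4* was not tested beyond these values. *Angpt2* was lower as well (-1.06, or -1.50 without the highest cells), with -3.56, -2.75 and 0.06 in ranges 1 to 3 (-2.87, -3.49 and 0.31 there without the highest cells) and -1.65 without cells of E2. For the last of these values, 1 cell held 80.2% of the old counts (1.53 CPM without it). *Angpt2* was within 2-fold as a mean of CPM over cells (-0.60), after thinning (-0.58) and without AEC with mesenchymal markers (-0.80). *Angpt1* was at -0.79, with -0.28, -1.38 and -0.21 in the ranges and -1.14 without the highest cells, but at 0.26 without AEC with mesenchymal markers and 0.23 without the 1 young AEC of E1, which held 55.9% of the young counts. Of its counts in ranges 1 and 2, 1 cell held at least 91.1% in each age. *Tek* (0.29) and *Tie1* (-0.10) stayed within 2-fold in every range, with *Tek* at 1.04 in range 3 without the highest cells. *Angptl2* was at -0.05 in all ranges together, with -0.34 and -0.49 in ranges 1 and 2. In range 2, 1 cell held 96.5% of the old counts, and without the highest cells young AEC were at 25.3 CPM and old AEC at 1.20 CPM. In range 3 it was at 0.155 CPM in young AEC, from 1 count, and 47.7 CPM in old AEC, with 74% in 1 cell (13.1 CPM without it).

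In SEC, 20.7% of 12982 genes were past 2-fold, and 1 of the 7 members was. *Angptl1* was lower in old SEC (log2 ratio -2.49), at 1.83 against 14.9 CPM, and 1 cell held 97.4% of the old counts. The ratio was -3.48 without the highest cells. Without cells of E1 it was at 2.15 CPM in young SEC, with 97.5% of the counts in 1 cell (0.0545 CPM without it), and had no count in old SEC. *Tie1* was at 0.70 (0.66 to 0.74 by counting error), *Tek* at 0.30 and *Angptl4* at 0.26, all higher in old SEC as summed counts. The median of *Angptl4* over cells was lower in old SEC, at 19.1 CPM against 353 CPM in young SEC. *Angpt2* (0.04), *Angptl2* (-0.19) and *Angpt1* (-0.24, or -0.83 without the highest cells) had small ratios. Without the SEC with mesenchymal markers, *Angpt1* had no count in young and 13.9 CPM in old SEC, and *Angptl2* 0.848 and 21.8 CPM, so that these 2 and *Angptl1* (-1.71) were past 2-fold. Each of the 3 rested on few cells. The old *Angpt1* counts lay mostly in 2 old SEC of E5, at 1090 and 509.6 CPM, while old SEC of E7 had 13 counts (1.01 CPM). Of the old *Angptl2* counts, 1 cell held 45.8% (12.0 CPM without it), and that cell, at 532 CPM, belonged to E2. The -1.71 of *Angptl1* set no old count against young counts of which 97.5% came from 1 cell. *Tek* was then at 0.09. Arteriolar markers summed to 314 CPM in young and 1079.8 CPM in old SEC and sinusoidal markers to 17945 and 13479 CPM. By cluster, 59 of 70 young and 44 of 71 old SEC lay in E7, 2 young and 12 old SEC in E6, and no young and 6 old SEC in E4. Within E7, young SEC had 394 CPM of *Tie1*, 467 CPM of *Tek* and 486 CPM of *Angptl4*, and old SEC 597, 592 and 914 CPM. For *Angptl4* the medians over these cells were 287 CPM in young and 227 CPM in old SEC. *Tie1* stood at 806 CPM in the old SEC of E6 and 1142 CPM in those of E4, *Tek* at 401 and 338 CPM, and *Angptl4* at 86.2 and 2.10 CPM. The part of this makeup in the age ratios of SEC was not tested beyond these values. All SEC came from 1 library-number range, so no second range was there to compare.

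**Figure D3:**
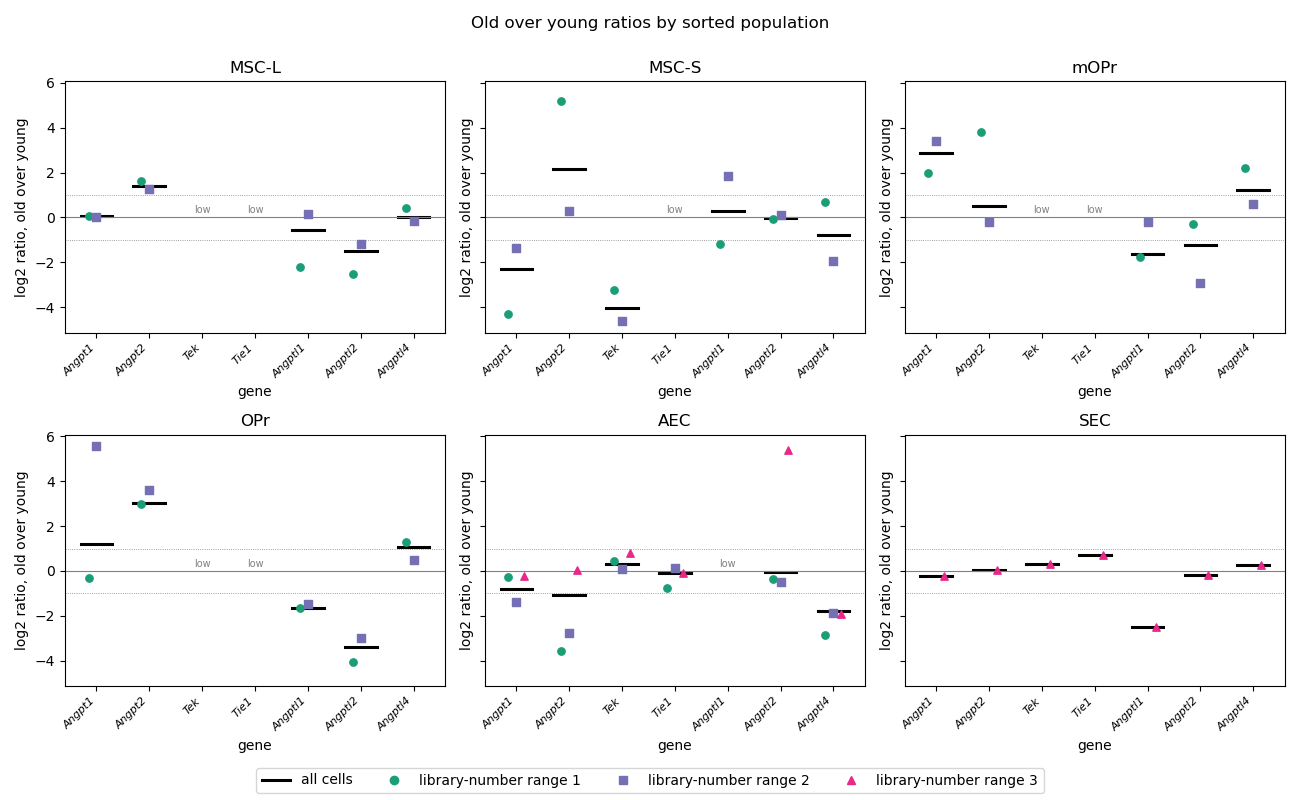
Black lines give the old over young log2 ratio (pseudocount of 1 CPM) of each gene in each sorted population, and points the same ratio within each library-number range of at least 5 cells per age, with dotted lines at 2-fold and "low" for genes under the count filter. *Angptl4* in AEC lies below the lower dotted line in all 3 ranges (-2.86, -1.86 and -1.93), while *Angpt1* in OPr has a negative and a positive range.

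The other genes of the pathway were read from a list of 41. In MSC-L, 3 of the 30 that passed the filter were at least 2-fold higher in old cells and 0 lower, where 25.4% of all genes were past 2-fold in either direction (median log2 ratio 0.08, against 0.01 over all genes). In MSC-S 1 was higher and 5 lower of 32, against 19.7% of all genes (median -0.04, against -0.06). In mOPr 7 were higher and 7 lower of 29, against 44.5% (-0.15, against 0.11), and in OPr 10 and 6 of 30, against 45.2% (0.10, against 0.14). Endothelium had 1 higher and 5 lower of 34 in AEC, against 21.1% (-0.06, against -0.03), and 4 higher and 1 lower of 34 in SEC, against 20.7% (0.24, against 0.05).

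Among other family ligands, *Angpt4*, a further ligand of Tie2, was abundant in MSC-L, at 119.6 CPM in young and 341 CPM in old cells. It reached 299 CPM in old mOPr and 532 CPM in old OPr, against 14.7 and 15.3 CPM in the young groups. Single cells held 48.6% and 43.8% of the counts of those old groups (164 and 321 CPM without them) and 99.5% and 54.4% of those of the young groups (0.0701 and 7.28 CPM without them). By cluster *Angpt4* was at 798 CPM in M2 and 233 CPM in M1. *Angptl7* was at 3208 CPM in young mOPr and 1140.5 CPM in young MSC-S, with 42.5% and 31.1% of the counts in 1 cell (1976 and 799 CPM without it). Old mOPr and old MSC-S had 642 and 157 CPM, with 56.8% and 46.2% in 1 cell (294 and 85.3 CPM without it). The 598 CPM of young OPr came almost wholly from 1 cell, which held 97.3% of the counts (17.1 CPM without it), and old OPr were at 2.48 CPM. *Angptl6* stayed at or below 3.91 CPM and *Gm6484* at or below 12.0 CPM in all groups.

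Partners of the Tie receptors were split between cell types. *Ptprb*, a phosphatase that acts on Tie2, was at 2433 CPM in young AEC and 1386 CPM in young SEC, and at most 1.33 CPM in mesenchymal groups. *Svep1*, a matrix protein that binds Tie1, was mesenchymal, at 701 CPM in young and 869.8 CPM in old MSC-L and under 1 CPM in AEC. Young SEC had 85.6 CPM of it, and by cluster young cells of E1 had 475 CPM and those of E7 8.31 CPM, 70.1% of it in 1 cell (2.52 CPM without it). The integrin genes *Itgb1*, *Itga5* and *Itgav* were found in all groups. Of the 8 signal carriers below Tie2, 7 passed the filter in AEC and SEC. With age, 0 of them were past 2-fold in AEC, against 21.1% of all genes, and 2 in SEC, against 20.7%, namely *Tnip2* and *Grb2*, both higher in old cells.

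Of the endothelial transcription factors, *Ets1* was at 519 CPM in young AEC and 543 CPM in young SEC and *Erg* at 190.4 and 112 CPM, while *Gata2* stood at 52.7 CPM in young and 192 CPM in old SEC (log2 ratio 1.85, or 0.23 without the highest cells). *Esm1*, known from endothelial tip cells, was here mainly a gene of MSC-L (1807 CPM young, 1296 CPM old), and in endothelium it was at 67 and 11.5 CPM in young and old AEC and at 137 and 39.6 CPM in young and old SEC. Without cells with mesenchymal markers it was at 44.9 and 11.9 CPM in AEC, with 63.5% of the young counts in 1 cell, and at 9.27 and 17.5 CPM in SEC, so that the order of the ages in SEC turned. *Apln*, another tip cell gene, was at 45 CPM in young and 10.6 CPM in old AEC. Without the highest cell *Esm1* was at 40.1 CPM in young and 7.66 CPM in old AEC and *Apln* at 22.1 and 6.20 CPM.

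Around *Angptl4*, its target *Lpl*, the lipoprotein lipase gene, was at 1866 CPM in young and 1628 CPM in old MSC-L and 268 CPM in young and 89.6 CPM in old AEC. *Gpihbp1*, which holds the enzyme on capillary endothelium, was at 531 CPM in young AEC and 684 CPM in young SEC, and at 383 and 1047 CPM in the old groups. *Lipg*, endothelial lipase, was a SEC gene (631 CPM young, 600.3 CPM old). *Pparg*, a regulator of lipid genes, was at 336 CPM in young SEC, 105 CPM in young MSC-L and 7.18 CPM in young MSC-S. *Pirb*, a receptor for Angptl2 on blood cells, was at 135 CPM in old OPr, the group that held the cells with hematopoietic markers, and at most 11.0 CPM elsewhere.

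Genes with the most similar pattern were sought by Pearson's r of log2(CPM + 1) over the 12 groups, among 11896 genes. The groups share 2 ages, 6 populations and 3 library ranges, so r is a description. Among the members themselves, r was 0.91 for *Tek* and *Tie1*, 0.85 for *Angptl1* and *Angptl2*, 0.79 for *Angpt2* and *Angptl4*, 0.68 for *Angpt1* and *Angptl4*, and 0.49 for *Angpt1* and *Angpt2*. The lowest value was -0.90, for *Tie1* and *Angptl1*. Among all genes, *Tie1* was matched most closely by *Ces2e* (r = 0.999), *Ptprb* (0.999) and *Adgrl4* (0.998), and *Tek* by *Myzap* (0.970), *Clec1a* (0.961) and *S100a16* (0.960). *Angpt1* was closest to *Mro* (0.945), *Per3* (0.936) and *4930594M22Rik* (0.935), and *Angpt2* to *Gm37233* (0.929), *Ttc39b* (0.928) and *Nrp2* (0.925). The matrix genes *Pcolce* (0.972), *Fbln1* (0.972) and *Col6a1* (0.963) were most like *Angptl1*, *Col3a1* (0.976) most like *Angptl2*, and *Serpina3g* (0.955) most like *Angptl4*. Of each 5 genes, from 0 (*Angptl4*) to 3 (*Angpt2*) were also among the first 5 by Spearman's rho.

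*Tek* and *Angptl2* are shown by the 250 bases before their RefSeq gene start (GRCm38.p6), since of the 4 members with an entry in the promoter table these 2 had no annotated exon of the gene inside the window. In the windows of *Tie1* and *Angptl1*, 212 and 250 of the 250 bases lay in exons. Capitals mark the letters GGAA, or TTCC for the other strand, the core of sites for ETS factors, searched on both strands. The core was found 2 times in each window shown, 4 times in that of *Angptl1* and 7 times in that of *Tie1*, and 93.4% of 32851 promoters of the same length hold it, with a median of 3. As many as 7 or more were found in 3.82%. The extended ETS site CCGGAAGT was in none of the 4 windows, and 2.88% of the promoters hold it. A match is a stretch of letters, and binding was not measured. The windows are chr4:94739039-94739288 (plus strand) for *Tek* and chr2:33215711-33215960 (plus strand) for *Angptl2*.
Tek: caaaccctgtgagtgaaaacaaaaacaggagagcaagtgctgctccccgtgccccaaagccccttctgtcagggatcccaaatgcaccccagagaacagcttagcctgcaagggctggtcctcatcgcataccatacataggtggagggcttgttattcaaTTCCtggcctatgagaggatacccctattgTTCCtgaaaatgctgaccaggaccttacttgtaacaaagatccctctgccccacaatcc
Angptl2: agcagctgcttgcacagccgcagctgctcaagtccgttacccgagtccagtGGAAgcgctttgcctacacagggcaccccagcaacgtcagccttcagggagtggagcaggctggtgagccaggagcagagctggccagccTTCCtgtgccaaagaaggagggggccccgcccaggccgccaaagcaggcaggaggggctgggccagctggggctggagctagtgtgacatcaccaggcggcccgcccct

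Counting was without strand, so reads of overlapping genes on opposite strands cannot be told apart. Of the exon bases of *Angpt1*, 737 of 5205 are shared with the antisense gene *Gm17473*, and of those of *Angptl1*, 465 of 2841 with *Gm37802*, and these 2 levels are uncertain to that extent. *Angpt2*, *Angptl1* and *Angptl2* lie inside the genes *Mcph1*, *Ralgps2* and *Ralgps1* on the other strand but share no exon base with them.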

How the data were processed

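Plate-based single-cell RNA sequencing with a protocol based on Smart-Seq2 gave full-length reads without molecular identifiers. Reads were aligned by the authors to GRCm38.p4 using GSNAP. Gene counts came from HTSeq, run unstranded. Cells with few reads or a high mitochondrial share were discarded before the raw counts were deposited. The 46078 entries included 270 that repeated a symbol, which were summed with it, leaving 45771 nuclear and 37 mitochondrial genes. No doublet caller was run here. Spike-in counts were not analysed here. Population, age and cluster came from the cell labels, the names of the clusters from the study, and gene IDs and models from GENCODE M21 (GRCm38).

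The deposited counts were scaled to CPM over nuclear genes. Ratios have exact conditional binomial intervals. A count of 0 allows up to 3 counts over the group. Genes named in the text were the 7 members, for each the 5 genes most like it (at least 1000 counts, in at least 25% of the cells of a group), a pathway list of 41 genes and cell type markers. Members and lists were chosen with earlier results of these data known. Not every gene selected is printed, and 1 gene counted in the pathway list is not reported here. Alternatives were means of CPM over cells, TMM and median-of-ratios scaling, thinning to 100000 counts (7 shallower cells left out), a pseudocount of 0.1 CPM, no filter, each library-number range, identity groups in place of sorted populations, and leaving out the highest cell or cells with markers of another type (at least 7 markers of the list at 10 CPM or more). Leaving out clusters M1 and M2, E1 or E2, and leaving out the highest cell within a range, were chosen after the data were seen. The ratio step was tested on simulated data. Software was R 4.3.3 with edgeR 4.0.16 (TMM factors only), and scipy 1.17.1, numpy 2.4.6, pandas 2.3.3 and matplotlib 3.10.9 under Python 3.11.15.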

Additional observations from a re-analysis of the deposited data

Results flagged for a closer look

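*Angpt1* and *Angptl4* had old over young ratios past 2-fold in opposite directions in different populations, with the same sign in each library-number range that could be compared and without the highest cells. *Angpt1* had a log2 ratio of -2.30 in MSC-S and 2.86 in mOPr. *Angptl4* had -1.80 in AEC, 1.22 in mOPr and 1.07 in OPr. The difference between populations was not tested, since each age of a population was 1 sample. The positive ratios came with a larger share of cells from M1 and M2 among old mOPr (14 of 26, against 2 of 26 young) and old OPr (10 of 29, against 3 of 44 young). Without these cells, where old mOPr had no count of *Angpt1*, the ratio of *Angpt1* in mOPr was -2.09, and those of *Angptl4* were 0.19 in mOPr and -2.43 in OPr. Both genes are guide genes of the mesenchymal clusters, so these ratios are in part set by the clustering and are a description. The value of -2.09 rests on 1 young cell, which held 97.8% of 45 young counts, set against 0 old counts through the pseudocount. For *Angptl4*, 1 cell held 70.6% of the young and 67.7% of the old mOPr counts that were left, and 61.5% and 88.7% of those of OPr. The old OPr left still held the 8 cells with hematopoietic markers, which were not found among young OPr. All old mOPr left lay in M5. Within M5, *Angptl4* was at 32.8 CPM in young and 199 CPM in old mOPr (16.4 and 68.3 CPM without the highest cells). In AEC, 8 young and 2 old cells lay in E6, where the young cells held 4033 of the 12581 young counts of *Angptl4*. Within E4 it was at 596 CPM in young and 272 CPM in old cells, or 307 and 173 CPM without the highest cells. Single cells held 72.4% of those young E6 counts and 50.6% of the young E4 counts.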

How the results depend on the processing

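Of 27 ratios of single members past 2-fold, 297 of 306 alternative values had the same direction and 274 were also still past 2-fold. The 9 reversed values were, without cells of M1 and M2, *Angpt1* in mOPr (-2.09), *Angpt2* in OPr (-1.71) and *Angptl4* in OPr (-2.43). With OPr-like identity in place of sorted OPr, *Angpt2* (-0.30) and *Angptl4* (-0.28) reversed. In library-number range 1 alone *Angpt1* in OPr was at -0.30 (-1.05 without the highest cells), and in range 3 alone *Angpt2* in AEC at 0.06 (0.31 without the highest cells). The first 2 rest on 1 young cell each, with 97.8% of 45 and 83.6% of 67 counts, against 0 and 1 old counts. Leaving out M1 and M2 leaves the 8 old OPr with hematopoietic markers in place. The cells left out held most old counts of these genes, and *Angpt1* and *Angptl4* are guide genes of the mesenchymal clusters. Leaving out M1 and M2, leaving out E1 or E2 and leaving out the highest cells of a range were chosen after seeing the data. The cause was not tested for any of the reversals.

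The number of members past 2-fold with age went from 4 to 2 in mOPr in range 2 alone and from 5 to 2 in OPr by identity group. In AEC it went from 2 to 1 with means of CPM, with thinning and without cells with mesenchymal markers. In SEC it went from 1 to 2 by identity group and to 3 without cells with mesenchymal markers or without E1. Between young SEC and AEC it went from 4 to 2 without cells with mesenchymal markers and to 6 without the highest cells. The highest cells left out also gave 3 in place of 2 in AEC and 5 in place of 4 in mOPr, and no other count moved by more than 1. No identity group matches mOPr, so that alternative was not run there. Scaling shifted all log2 ratios by -0.16 (TMM) and -0.13 (median of ratios) in mOPr, -0.19 and -0.17 in OPr, and -0.35 and -0.30 between MSC-L and MSC-S. No paired analysis was possible because the cell numbers in the titles do not tie young to old cells and no test was made. Ratios within library-number ranges stand beside the pooled ones. Thinning kept 64 of 84 shares of cells within their interval. By longest transcript, 68 of 84 places in the order per length were kept. Low levels are limited by depth, since 3 counts equal 0.0766 CPM in old MSC-S and 0.240 CPM in old mOPr.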
